A study of Homo sapiens with 12 samples.

Results

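The comparison described here is the effect of an siRNA against IPMK in Cal51 cells that received no DNA-damaging drug. It rests on 6 of the 12 arrays of the series, the 3 labelled siIPMK and the 3 labelled siCONTROL that are described as untreated, and the rule for choosing them used no measured value. Cal51 is a human breast carcinoma cell line, and the cells were harvested 72 hours after transfection with the siRNA against IPMK or with the control siRNA. The other 6 arrays, 3 for each siRNA, came from cells kept in the DNA crosslinking drug mitomycin C (MMC) for the final 24 hours. All arrays measured RNA of the cytoplasm, released by digitonin, which opens the plasma membrane and leaves the nuclear membrane largely closed. The model is limited to a transient siRNA depletion in a single cell line against a single control siRNA condition, and the labels do not say how many siRNA sequences were used or whether the 3 numbered experiments were separate cultures. The p-values below therefore measure the spread between arrays, which may be partly technical. No probe carried the name IPMK in the annotation used, so how far the target itself was depleted is not analysed here.

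IPMK, the inositol polyphosphate multikinase, adds phosphates to soluble inositol phosphates and to phosphoinositide lipids, and part of it works in the nucleus. A messenger RNA is counted in the cytoplasm after it has been transcribed, spliced, bound by export factors such as the TREX complex with its adaptor ALYREF, passed through a nuclear pore, and before it has decayed. A level in this fraction therefore combines synthesis, export and decay, and the arrays hold no nuclear fraction that would separate them. The study asked which cytoplasmic transcripts depend on IPMK.

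Levels are given as normalised log2 signal, and a difference of 1 is a doubling. The siIPMK arrays detected more probes than the siCONTROL arrays, 13067 to 13458 in siIPMK and 12122 to 12542 in siCONTROL. Across genes, arrays of the same siRNA correlated at 0.979 to 0.994 in siIPMK and 0.989 to 0.993 in siCONTROL, and arrays of different siRNA at 0.938 to 0.976. The siIPMK array of experiment 1, called array 1, stood apart, as did the siIPMK array of experiment 1 with MMC, at 11.97 on the first principal component against 38.4 and 35.2 for the other siIPMK arrays with MMC. Without MMC these positions were 6.64 against 35.3 and 32.2. The called genes of siIPMK array 1 without MMC lay a median of 0.47 from the siCONTROL mean on the log2 scale, against 0.762 on siIPMK array 2 and 0.738 on siIPMK array 3. Of the marker genes fixed for this line and for other cells, all 5 epithelial markers with a named probe were detected on all 6 arrays. No probe carried the name of any of the 6 leukocyte markers, and named probes existed for 3 of 7 fibroblast and 2 of 5 endothelial markers. COL1A2 and PDGFRB of the fibroblast markers and PECAM1 of the endothelial markers were detected on all 6 arrays, and none of these 3 passed the test. The fibroblast marker COL1A1 and the endothelial marker VWF had a named probe and were detected on 0 siIPMK and 0 siCONTROL arrays.

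Of 9409 genes tested, 1922 rose after siIPMK (20.4%) and 1868 fell (19.9%), together 40.3%. The threshold was an adjusted p of 0.05, and every adjusted p below is limma's, corrected by Benjamini-Hochberg over all genes tested. The rises included 430 genes higher by at least 2-fold and 26 by at least 4-fold, and the falls 277 lower by at least 2-fold and 18 by at least 4-fold. The 3 siIPMK and 3 siCONTROL arrays did not overlap for 4907 genes, 52.2% of those tested. The median rise was 0.70 and the median fall was -0.61 on the log2 scale, and the standard error of a difference had a median of 0.154. Called genes included 178 that were detected on 3 of 3 siIPMK arrays and 0 of 3 siCONTROL arrays, while 20 had the opposite pattern. A gene kept by the filter on dim probes only through the group in which it is bright had to differ, so the 1525 rises and 1707 falls detected on all 6 arrays are the firmer count. The balance between the directions depended on the scaling. With median scaling in place of quantile normalisation, which moved the median of all genes up by 0.128, 2444 genes rose and 1065 fell, and 69.6% of the calls were rises in place of 50.7%.

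The largest rise among genes detected on all 6 arrays was that of RPPH1, the RNA component of ribonuclease P, which trims transfer RNA precursors in the nucleus. Its log2 levels were 10.91, 10.67 and 10.65 in the siIPMK arrays, against 7.75, 7.46 and 7.69 in the siCONTROL arrays. All siIPMK arrays lay far above all siCONTROL arrays, and the rise of 3.11 ± 0.14 (standard error, adjusted p = 1.01e-08) was the only one of the 15 largest for which array 1 was not the smallest. GDF15, a secreted stress cytokine, had log2 levels of 10.33, 11.52 and 11.26 in the siIPMK arrays, against 8.50, 8.20 and 7.94 in the siCONTROL arrays. It rose by 2.82 ± 0.27 (adjusted p = 8.48e-06), with array 1 the lowest of the siIPMK arrays and still above each siCONTROL array. CD44, the cell surface receptor for hyaluronan, had log2 levels of 11.22, 11.81 and 11.44 in the siIPMK arrays, against 9.44, 8.74 and 8.63 in the siCONTROL arrays. Its siCONTROL arrays spread more than those of most genes, yet the groups were well apart, and the rise was 2.55 ± 0.26 (adjusted p = 1.39e-05). A second CD44 probe rose by 3.02.

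ABCA1, which exports cholesterol from cells, had log2 levels of 8.75, 9.77 and 9.64 in the siIPMK arrays, against 7.0, 6.91 and 6.81 in the siCONTROL arrays. The siCONTROL arrays agreed closely and array 1 was the lowest of siIPMK, and the rise was 2.48 ± 0.25 (adjusted p = 1.64e-05). CROT, a peroxisomal enzyme that moves medium-chain acyl groups onto carnitine, had log2 levels of 10.68, 11.24 and 11.44 in the siIPMK arrays, against 8.74, 8.93 and 8.89 in the siCONTROL arrays. It rose by 2.26 ± 0.20 (adjusted p = 7.45e-06) with no overlap. The remaining large rises were VASN, a membrane protein that binds TGF-beta, by 2.26 ± 0.21, the secreted glutathione peroxidase GPX3 by 2.17 ± 0.40, the secretoglobin SCGB2A1 by 2.13 ± 0.22, the glutaredoxin GLRX by 1.95 ± 0.24, the sulfotransferase UST by 1.93 ± 0.22, the cell cycle inhibitor CDKN1A by 1.92 ± 0.15, the coactivator CITED4 by 1.89 ± 0.12, the glucose transporter SLC2A1 by 1.88 ± 0.30, the cation channel TRPC6 by 1.86 ± 0.18 and DRAM1, a lysosomal membrane protein of autophagy, by 1.86 ± 0.16. In the authors' processed values the rises of ABCA1, VASN, GLRX and UST were 1.64, 1.44, 1.28 and 1.21, and all 4 still passed.

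TK1, the thymidine kinase that cells make for S phase, had the largest fall among genes detected on all 6 arrays. Its log2 levels were 10.19, 8.72 and 8.87 in the siIPMK arrays, against 11.78, 11.71 and 11.89 in the siCONTROL arrays. The siCONTROL arrays spanned a narrow range, array 1 fell part of the way and arrays 2 and 3 further, and TK1 fell by 2.53 ± 0.39 (adjusted p = 0.000238). MIS18A, which helps place the centromeric histone on chromosomes, had log2 levels of 7.61, 6.29 and 6.30 in the siIPMK arrays, against 9.21, 9.21 and 9.28 in the siCONTROL arrays. It fell by 2.50 ± 0.36 (adjusted p = 0.000147), in the same array order, and a second probe fell by 1.64. RAB22A, a small GTPase of endosomes, had log2 levels of 8.05, 7.12 and 7.45 in the siIPMK arrays, against 9.98, 9.92 and 9.88 in the siCONTROL arrays. Its arrays did not overlap either, and it fell by 2.39 ± 0.22 (adjusted p = 8.48e-06).

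SEM1, a small acidic protein of the proteasome lid, of the BRCA2 complex and of the TREX-2 export complex, had log2 levels of 12.81, 11.46 and 11.55 in the siIPMK arrays, against 14.20, 14.16 and 14.23 in the siCONTROL arrays. It fell by 2.25 ± 0.31 (adjusted p = 0.000130), and its second probe fell by 2.70. HPRT1, the purine salvage enzyme often used as a control gene, had log2 levels of 11.26, 10.20 and 10.21 in the siIPMK arrays, against 12.33, 12.27 and 12.47 in the siCONTROL arrays. It fell by 1.80 ± 0.28 (adjusted p = 0.000263), with array 1 between the siCONTROL arrays and the other siIPMK arrays. G3BP1, a core protein of stress granules, had log2 levels of 7.86, 7.82 and 7.58 in the siIPMK arrays, against 9.44, 9.71 and 9.43 in the siCONTROL arrays. Here the 3 siIPMK arrays lay close together, array 1 included, and G3BP1 fell by 1.77 ± 0.14 (adjusted p = 3.88e-06).

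The other strong falls included HEYL (-2.34 ± 0.32) and HEY1 (-1.92 ± 0.27), repressors that respond to Notch. They also included the mitochondrial ornithine carrier SLC25A15 (-2.33 ± 0.31), the kinetochore subunit SPC24 (-2.25 ± 0.28), the pseudophosphatase STYX (-2.11 ± 0.41) and UBE2J1 (-2.07 ± 0.29), a ubiquitin-conjugating enzyme of the endoplasmic reticulum (ER). The mitotic survival factor BIRC5 (-2.01 ± 0.28), the isoprenoid enzyme IDI1 (-2.01 ± 0.30) and SPACA9 (-1.96 ± 0.30) completed the 15. Probes disagreed in size for SLC25A15, whose second probe fell by 0.383, and for STYX, whose second probe fell by 0.608. In the authors' processed values MIS18A, HEYL, IDI1 and SPACA9 fell by 1.55, 1.54, 1.27 and 1.25, and all 4 still passed.

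**Figure D1:**
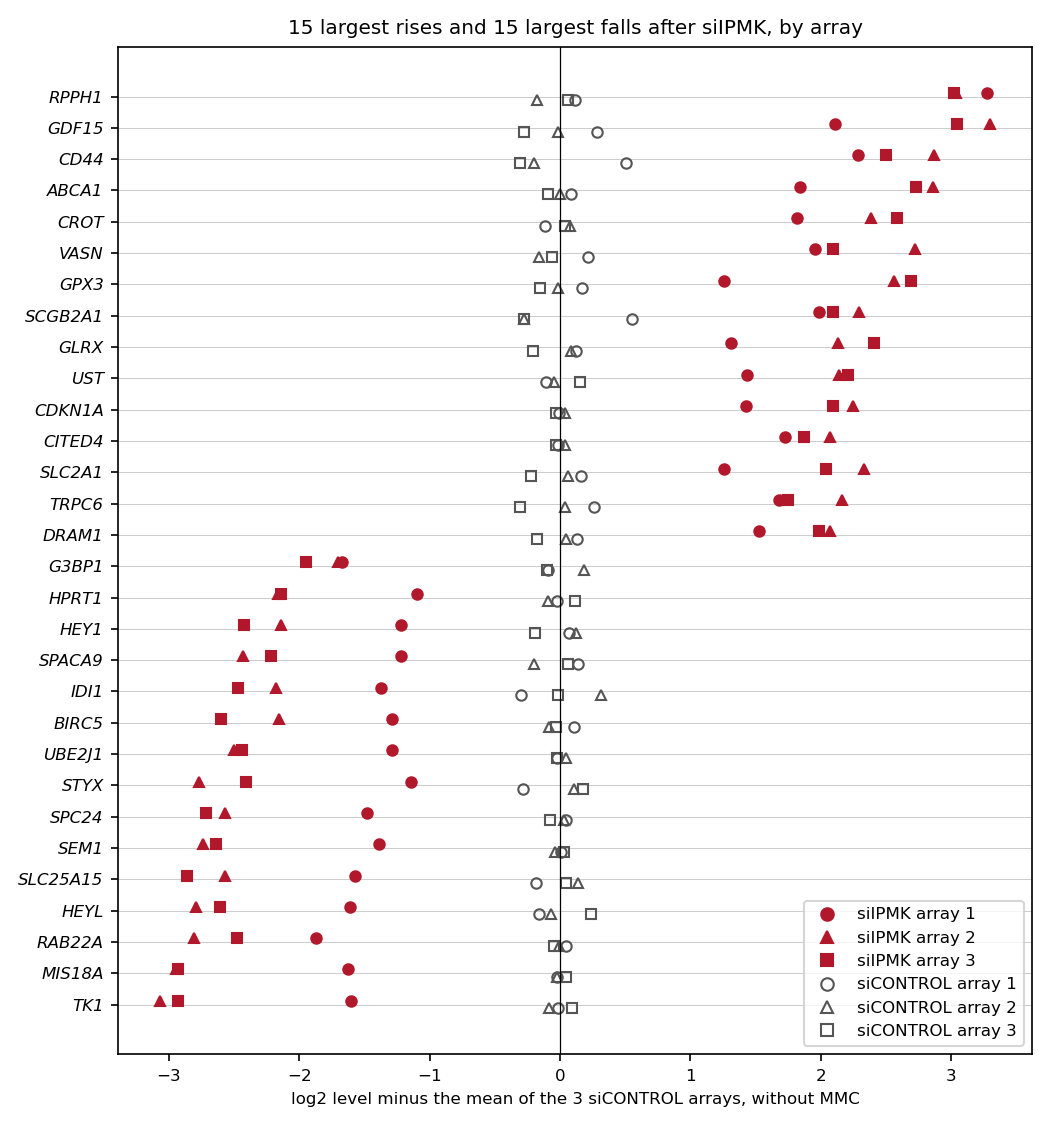
Log2 level minus the siCONTROL mean (horizontal axis) for the 15 strongest rises and the 15 strongest falls of genes detected on all 6 arrays, without MMC. Filled red points are the siIPMK arrays, open grey points the siCONTROL arrays, and the shape gives the array number. No gene overlaps between the siRNAs, and siIPMK array 1 (circles) lies nearest to siCONTROL for 29 of the 30 genes, with RPPH1 as the exception.

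Some transcripts were detected on every siIPMK array and on no siCONTROL array. For a gene detected on 3 of 3 siIPMK arrays and on 0 of 3 siCONTROL arrays the ratio is a lower bound, the siIPMK mean against the dimmest signal that counts as detected. The bound holds on the background-corrected, quantile-normalised scale. In the authors' processed values the log2 differences of these genes were smaller than their bounds, from 0.79 for MAPRE3 to 1.32 for DGKB with 1.11 for MMP28, and all 10 genes below still passed as higher. MMP28, a secreted metalloproteinase, had log2 levels of 8.31, 8.44 and 8.28 in the siIPMK arrays, against 6.46, 6.17 and 5.79 in the siCONTROL arrays, and was at least 3.47-fold higher in siIPMK (adjusted p = 3.88e-06). TUBB4A, a beta tubulin best known from neurons and glia, was at least 3.36-fold higher (adjusted p = 7.26e-06). The next bounds were at least 3.06-fold for EPDR1, 2.95-fold for the diacylglycerol kinase DGKB, 2.90-fold for the reductase DHRS2, 2.78-fold for EEA1, which tethers early endosomes, and 2.77-fold for WIPI1, which reads a phosphoinositide on forming autophagosomes. NRG1, a growth factor that binds ERBB receptors, the calcium-binding protein S100Z and the microtubule end-binding protein MAPRE3 followed at 2.66-fold, 2.63-fold and 2.63-fold. DHRS2 went against the usual array order, with log2 levels of 9.11, 7.60 and 7.54 in the siIPMK arrays, against 4.88, 5.65 and 5.40 in the siCONTROL arrays, so that array 1 was the brightest. The largest bounds in the other direction, not recomputed under the alternatives, were smaller, at least 2.26-fold lower in siIPMK for the deubiquitinase USP47, 1.91-fold for the transcription factor SIM2 and 1.89-fold for the small GTPase ARL3.

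Genes of cell division fell. Among the 41 measured genes of the kinetochore and centromere, where chromosomes attach to microtubules, 0 rose, 27 fell and 14 did not pass, with a median log2 difference of -0.58 against 0.00 over all genes tested. In a bulk sample fewer cells in division and less of these RNAs per cell cannot be told apart. SPC24, a subunit of the NDC80 complex that binds microtubules, had log2 levels of 8.86, 7.77 and 7.62 in the siIPMK arrays, against 10.38, 10.37 and 10.26 in the siCONTROL arrays. All siIPMK arrays were lower, array 1 the least, with adjusted p = 6.11e-05. CENPM, of the inner kinetochore, fell by 1.21 ± 0.17 (adjusted p = 0.000165). The count of falls was 16 with median scaling and 17 without siIPMK array 2 and also without siIPMK array 3.

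Of 39 measured mitotic kinases, cyclins and anaphase ubiquitination genes, 1 rose, 27 fell and 11 did not pass, with a median of -0.62. BIRC5, survivin, the targeting subunit of the chromosomal passenger complex, had log2 levels of 10.06, 9.20 and 8.75 in the siIPMK arrays, against 11.46, 11.27 and 11.32 in the siCONTROL arrays. Its groups were more than 1 log2 unit apart at their closest. PLK1, a kinase needed for spindle assembly and mitotic exit, had log2 levels of 8.86, 8.20 and 8.05 in the siIPMK arrays, against 9.52, 9.42 and 9.74 in the siCONTROL arrays. It fell by 1.20 ± 0.22 (adjusted p = 0.000990), and the mitotic kinase PBK by 1.14 ± 0.18 (adjusted p = 0.000362). The single rise was ANAPC5, a scaffold subunit of the anaphase-promoting complex, by 0.45 ± 0.08 (adjusted p = 0.000919).

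Kinesin, spindle and cytokinesis genes held the lowest median of the cell division lists, -0.75, and of 23 measured 0 rose, 17 fell and 6 did not pass. CEP55, which builds the bridge cut at the end of cytokinesis, had log2 levels of 10.42, 9.49 and 9.50 in the siIPMK arrays, against 11.29, 11.28 and 11.32 in the siCONTROL arrays. It fell by 1.49 ± 0.28 (adjusted p = 0.000974), with a step between array 1 and the other siIPMK arrays. The motors KIF4A and KIF15 fell by 1.13 ± 0.20 and 1.02 ± 0.28. Without siIPMK array 2 the count of falls was 11. Among 18 condensin, cohesin and scaffold genes 0 rose, 11 fell and 7 did not pass, including the condensin subunit SMC2 at -0.78 ± 0.19, the largest fall among those detected on all 6 arrays, with 3 to 7 falls without siIPMK array 2 or 3 or siCONTROL array 1 or 3 and 5 with median scaling. Among 25 centrosome genes 0 rose, 15 fell and 10 did not pass, including gamma-tubulin TUBG1 at -0.79 ± 0.09, with log2 levels of 11.96, 11.80 and 11.63 in the siIPMK arrays, against 12.58, 12.55 and 12.63 in the siCONTROL arrays. No siIPMK array reached the siCONTROL level of TUBG1. The centrosome falls numbered 6 with median scaling, 8 without siIPMK array 3 and 9 without siCONTROL array 3. Of 14 tubulin genes 3 rose (21.4%) and 1 fell (7.1%), against 20.4% and 19.9% over all genes tested, so the share of rises lay near that of all genes. Beta tubulins moved in opposite directions, TUBB3 by 0.79 ± 0.13 and TUBB2B by -1.19 ± 0.24.

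Promoter sequences are shown for the 4 strongest falls of the kinetochore and mitotic kinase lists, among genes detected on all 6 arrays whose printable RefSeq promoter holds a searched motif, since these genes moved together. Each is the 250 bases before the RefSeq transcript start (GRCh38.p14), printed 5′ to 3′ on the gene's strand. Capitals mark a CHR element (TTTGAA or TTCGAA), a box with the letters CCAAT, or an E2F motif. The E2F motif was read as TTCCCGC and also as TTGGCGC and also as TTCGCGC and also as TTGCCGC, all motifs were searched on both strands, and no marked match overlaps another. CHR elements and CCAAT boxes are known from promoters of genes active late in the cell cycle, where the DREAM complex and NF-Y bind, and E2F motifs from promoters of genes active at the start of S phase. The SPC24 promoter (chr19:11155783-11156032, minus strand) holds 3 CCAAT boxes, the CENPU promoter (chr4:184734097-184734346, minus strand) a CCAAT box and an E2F motif, the PLK1 promoter (chr16:23678639-23678888, plus strand) a CCAAT box followed by a CHR element 29 bases before the start, and the CENPK promoter (chr5:65563169-65563418, minus strand) 3 CCAAT boxes. CENPU and CENPK, both of the inner kinetochore, fell by 1.20 ± 0.23 and 1.19 ± 0.30, and were chosen by this rule after their values were known.
SPC24: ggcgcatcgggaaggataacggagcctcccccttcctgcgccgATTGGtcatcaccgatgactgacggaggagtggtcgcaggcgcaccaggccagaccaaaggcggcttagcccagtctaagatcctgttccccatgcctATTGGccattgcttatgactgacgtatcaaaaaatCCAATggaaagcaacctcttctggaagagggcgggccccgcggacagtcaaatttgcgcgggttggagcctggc
CENPU: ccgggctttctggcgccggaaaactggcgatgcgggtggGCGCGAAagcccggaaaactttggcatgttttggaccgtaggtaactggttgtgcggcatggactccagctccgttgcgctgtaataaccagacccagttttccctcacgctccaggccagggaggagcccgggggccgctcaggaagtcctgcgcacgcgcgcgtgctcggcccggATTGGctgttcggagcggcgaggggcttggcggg
PLK1: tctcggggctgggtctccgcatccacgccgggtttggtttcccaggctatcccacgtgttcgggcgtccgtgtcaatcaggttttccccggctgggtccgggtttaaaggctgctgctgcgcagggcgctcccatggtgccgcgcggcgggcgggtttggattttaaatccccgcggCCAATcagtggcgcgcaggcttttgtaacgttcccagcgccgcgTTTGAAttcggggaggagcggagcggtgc
CENPK: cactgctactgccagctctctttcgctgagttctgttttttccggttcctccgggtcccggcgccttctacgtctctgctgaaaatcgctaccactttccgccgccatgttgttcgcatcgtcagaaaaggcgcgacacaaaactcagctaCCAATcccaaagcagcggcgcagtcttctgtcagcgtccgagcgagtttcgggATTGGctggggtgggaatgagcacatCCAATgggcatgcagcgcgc

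RefSeq promoters were matched for 7824 of the 9409 genes tested (83.2%). A CHR element stood in 12.2% of the matched promoters of falling genes, 8.77% of those of rising genes, 9.85% of those of all genes tested and 14.6% of all 27305 promoters in the table. An E2F motif stood in 23.4% for falling genes, 15.2% for rising genes, 18.2% for all genes tested and 11% of the table. CCAAT boxes stood in 40.2% for falling genes, 34.5% for rising genes, 36.4% for all tested and 33.0% of the table. Kinesin, spindle and cytokinesis genes had a CHR element in 13 of 22 matched promoters (59.1%), while replication licensing genes had one in 5.0% and an E2F motif in 45.0%. Lists with more rises than falls held motifs too. An E2F motif stood in 30.6% for p53 targets, 27.0% for ER genes, 18.8% for extracellular matrix genes and 11.4% for lysosome genes. In the same order, a CHR element stood in 2.78%, 3.17%, 6.25% and 4.55%. These shares describe letters in a fixed window, and whether any factor binds there was not measured. The genes also differed in length, with a median span from first to last base of 44.4 kb for rising genes, 22.7 kb for falling genes and 28.7 kb for all genes tested.

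DNA replication genes fell with them. Of 23 measured licensing and helicase genes 0 rose, 15 fell and 8 did not pass, with a median of -0.56, while the 34 polymerase and fork genes gave 1 rise and 25 falls, with a median of -0.60. CDC45, which joins the MCM ring to form the active helicase, had log2 levels of 10.39, 9.69 and 9.74 in the siIPMK arrays, against 11.24, 11.45 and 11.41 in the siCONTROL arrays. It fell by 1.42 ± 0.18 (adjusted p = 7.34e-05) with no overlap. CDT1, which loads the MCM ring in G1, had log2 levels of 9.99, 9.46 and 9.60 in the siIPMK arrays, against 10.94, 10.94 and 11.09 in the siCONTROL arrays. It fell by 1.31 ± 0.14 (adjusted p = 2.66e-05), and its 3 siIPMK arrays lay closer together than those of CDC45. Split by complex, a split made after the values were seen, 5 of 6 MCM2 to MCM7 subunits and 3 of 3 GINS subunits fell. Of 6 subunits of the origin recognition complex 1 fell.

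POLE3, an accessory subunit of DNA polymerase epsilon, had log2 levels of 11.90, 11.06 and 11.28 in the siIPMK arrays, against 13.32, 13.04 and 13.08 in the siCONTROL arrays. It fell by 1.73 ± 0.20 (adjusted p = 4.07e-05), and POLE2 of the same enzyme by 1.53 ± 0.26 (adjusted p = 0.000538). RFC2, of the clamp loader, fell by 1.08 ± 0.29, and the histone chaperone ASF1A was the single rise, 0.56 ± 0.13. Among 28 nucleotide synthesis genes 2 rose, 10 fell and 16 did not pass, TK1, HPRT1 and the purine enzyme PFAS (-1.02 ± 0.13) among the falls and the nucleoside diphosphate kinase NME2 among the rises (0.82 ± 0.12), a call that was lost when the mean of its 3 probes was used. Of 28 G1 cyclin, CDK inhibitor and E2F genes 3 rose, 13 fell and 12 did not pass. SKP2, which marks CDK inhibitors for destruction, fell by 1.1 ± 0.24, and the E2F partner TFDP1 by 0.92 ± 0.14. Cyclin D1, CCND1, rose by 0.77 ± 0.14, with log2 levels of 13.95, 14.48 and 14.52 in the siIPMK arrays, against 13.43, 13.71 and 13.52 in the siCONTROL arrays, and the retinoblastoma gene RB1 rose by 0.66 ± 0.11. CCND1 was higher on every siIPMK array than on any siCONTROL array.

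Repair and checkpoint genes fell in part. Among 28 homologous recombination genes 1 rose, 15 fell and 12 did not pass, the 18 Fanconi and translesion genes gave 1 rise and 10 falls, and the 18 damage checkpoint genes also gave 1 rise and 10 falls. These counts leaned on the scaling, with 5, 4 and 4 falls under median scaling. They also leaned on single arrays: homologous recombination had 9 falls without siIPMK array 3 or siCONTROL array 3, the Fanconi list 4 to 6 without siIPMK array 2 or 3 or any siCONTROL array, and the checkpoint list 5 or 6 without siIPMK array 2 or 3 or siCONTROL array 3. EXO1, the nuclease that resects DNA ends, had log2 levels of 9.53, 9.02 and 9.09 in the siIPMK arrays, against 10.20, 10.33 and 10.31 in the siCONTROL arrays. It fell by 1.07 ± 0.15 (adjusted p = 0.000143) with no overlap, and RMI2 of the BLM dissolvasome fell by 1.12 ± 0.25 (adjusted p = 0.00303). BRCA1 had log2 levels of 8.62, 8.01 and 8.45 in the siIPMK arrays, against 8.90, 9.18 and 8.92 in the siCONTROL arrays. It fell by 0.64 ± 0.16 (adjusted p = 0.00724), a call that was lost with median scaling, and its second probe fell by 0.85.

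In the crosslink repair pathway FANCI, a partner in the clamp that closes on damaged DNA, fell by 1.1 ± 0.21 (adjusted p = 0.00106), and FANCG and FANCE of the core complex by 0.99 ± 0.15 and 0.95 ± 0.14. REV3L, the catalytic subunit of the bypass polymerase zeta, rose by 0.93 ± 0.19 (adjusted p = 0.00170). In the checkpoint list the TELO2, TTI1 and TTI2 genes, whose products form the TTT chaperone that stabilises ATM, ATR and mTOR, had the 3 largest falls of that list among its genes detected on all 6 arrays. TELO2 had log2 levels of 7.5, 7.51 and 7.21 in the siIPMK arrays, against 8.56, 8.66 and 8.74 in the siCONTROL arrays. It fell by 1.25 ± 0.13 (adjusted p = 1.76e-05), TTI1 by 1.04 ± 0.19 and TTI2 by 0.72 ± 0.13, and array 1 was not the least changed siIPMK array for TELO2. CHEK1, the kinase that halts the cycle when replication stalls, had log2 levels of 9.96, 9.72 and 9.75 in the siIPMK arrays, against 10.26, 10.55 and 10.52 in the siCONTROL arrays and fell by 0.63 ± 0.14 (adjusted p = 0.00258). Of 42 excision, mismatch and end joining genes 5 rose, 15 fell and 22 did not pass. The falls, 7 with median scaling and 8 without siIPMK array 2, included the thymine glycosylase TDG (-1.13 ± 0.13) and XRCC1 (-0.98 ± 0.14), a scaffold of single-strand break repair, and the rises included the nuclease ERCC5 (0.72 ± 0.14).

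Targets of the tumour suppressor p53 rose without any drug. Of the 47 targets measured, 26 rose, 3 fell and 18 did not pass, with a median of 0.44. Of the 26 rises, 19 were detected on all 6 arrays, 4 on no siCONTROL array and 3 on 1 or 2 siCONTROL arrays. CDKN1A, p21, which blocks cyclin-dependent kinases, had log2 levels of 13.55, 14.37 and 14.22 in the siIPMK arrays, against 12.12, 12.17 and 12.09 in the siCONTROL arrays. The siCONTROL arrays lay within 0.1 of each other and every siIPMK array was more than 1 above them (adjusted p = 3.88e-06), and the second probe rose by 1.57. DRAM1 had log2 levels of 9.67, 10.22 and 10.13 in the siIPMK arrays, against 8.28, 8.19 and 7.97 in the siCONTROL arrays, again with no overlap (adjusted p = 7.45e-06). Smaller rises included PPM1D, a phosphatase that switches the p53 response off, by 0.37 ± 0.13 (adjusted p = 0.0370). That call was lost without any single one of the 6 arrays. XPC, which senses DNA lesions, rose by 0.44 ± 0.13 (adjusted p = 0.0172), a call lost without siIPMK array 2 and without siCONTROL array 1 or 2. The falls were those of RRM2B, a ribonucleotide reductase subunit (-0.86 ± 0.25), the apoptosis link BID (-0.65 ± 0.15) and the RNA-binding protein ZMAT3 (-0.51 ± 0.13). The call of RRM2B was lost with the mean of its probes, without siIPMK array 2 or 3 and without siCONTROL array 3, and that of ZMAT3 with median scaling.

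**Figure D2:**
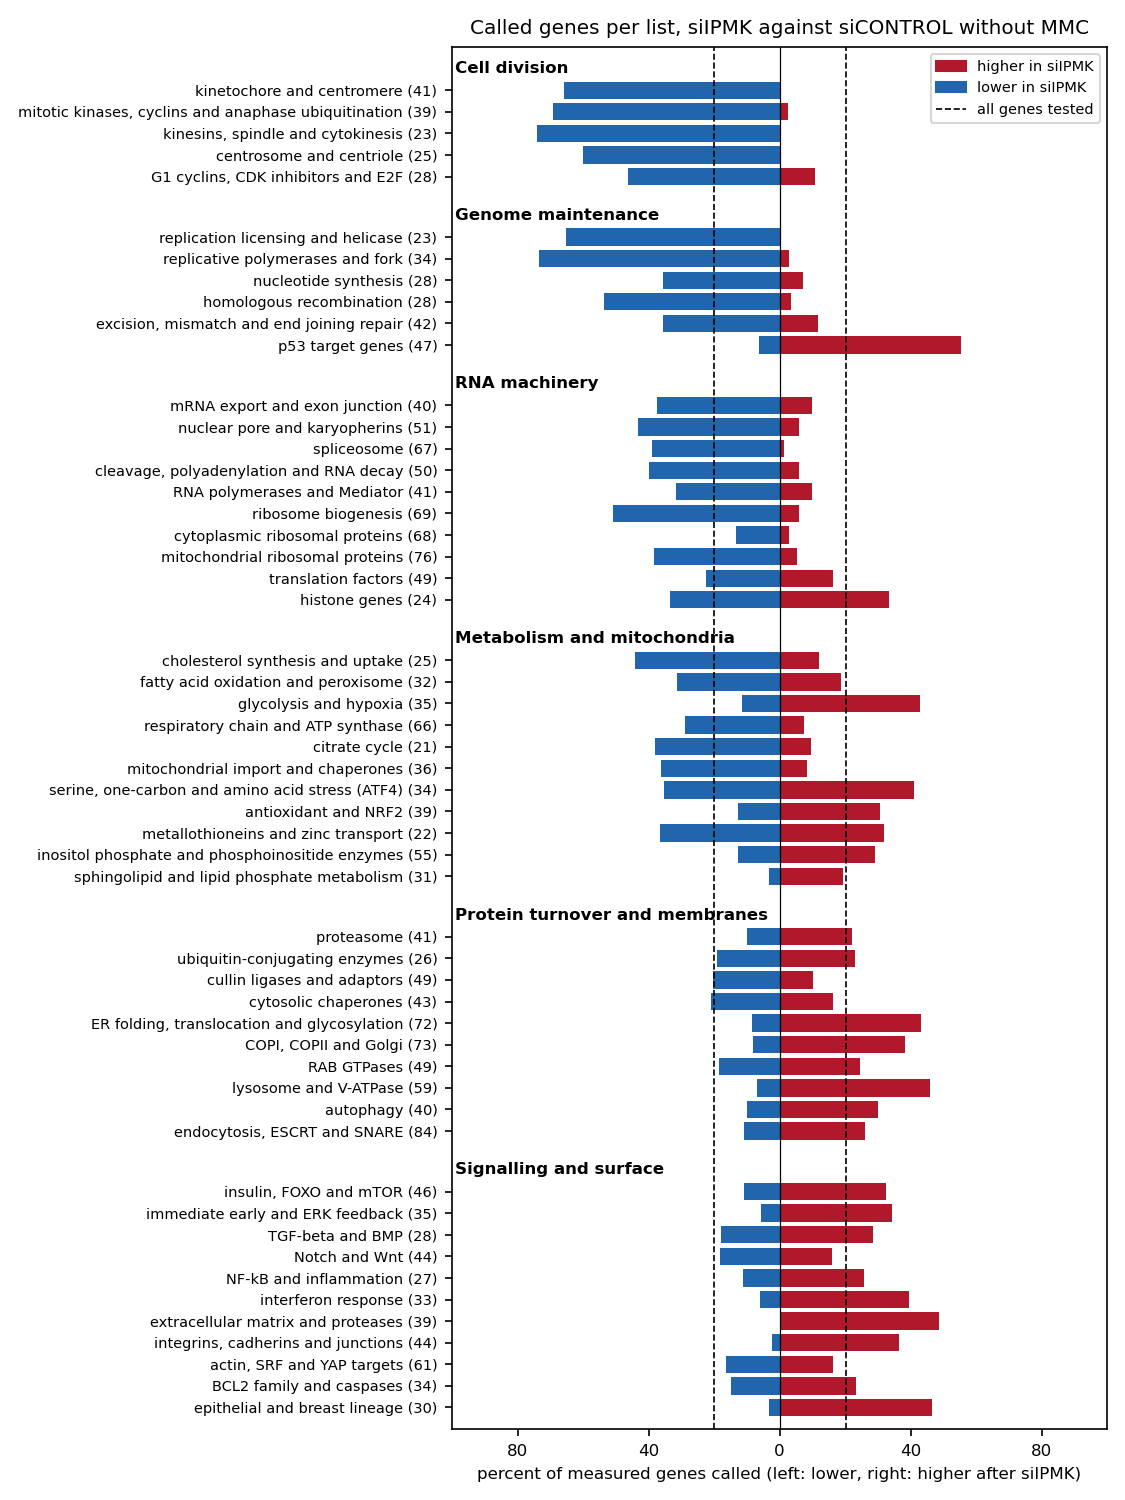
Share of measured genes called lower (blue, to the left) and higher (red, to the right) after siIPMK without MMC, in percent, for the 53 gene lists with at least 20 measured genes. Dashed lines mark the shares over all genes tested, 20.4% higher and 19.9% lower; the kinetochore, mitotic kinase, kinesin, centrosome, G1, licensing and polymerase lists reach 46.4% to 73.9% lower, and the extracellular matrix list reaches 48.7% higher with 0 lower.

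Genes of the machinery that processes messages and carries them to the cytoplasm fell more often than they rose. Of 40 measured mRNA export and exon junction genes 4 rose, 15 fell and 21 did not pass, the 51 nuclear pore and karyopherin genes gave 3 rises and 22 falls, and the 67 spliceosome genes 1 rise and 26 falls. With median scaling the falls numbered 9, 14 and 17, and without siIPMK array 2 those of the pore and spliceosome lists numbered 14 and 17. ALYREF, the export adaptor, had log2 levels of 10.83, 10.54 and 10.14 in the siIPMK arrays, against 10.92, 11.04 and 10.89 in the siCONTROL arrays. Its difference of -0.44 ± 0.19 did not pass (adjusted p = 0.0784), with siIPMK arrays that spread widely and did not overlap siCONTROL. It passed without siIPMK array 1, where it was -0.607, without experiment 1, with the 6 arrays alone and with the replicate block, while without siIPMK array 3 it was -0.263 and did not pass. DDX19A, a helicase that releases messenger RNA at the cytoplasmic face of the pore, fell by 0.98 ± 0.12 (adjusted p = 6.11e-05), and MAGOH, a core exon junction protein, fell by 0.78 ± 0.12 (adjusted p = 0.000276).

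NUP37 of the pore scaffold had log2 levels of 11.95, 11.65 and 11.81 in the siIPMK arrays, against 12.82, 12.59 and 12.67 in the siCONTROL arrays. It fell by 0.89 ± 0.11 (adjusted p = 5.35e-05), with array 1 the least changed of siIPMK, and NUP85 of the same scaffold fell by 0.83 ± 0.14. The importin KPNA4 rose by 0.59 ± 0.15. SF3A3, a splicing factor of the U2 particle, had log2 levels of 10.93, 10.17 and 10.32 in the siIPMK arrays, against 11.92, 11.88 and 11.91 in the siCONTROL arrays. It fell by 1.43 ± 0.16 (adjusted p = 2.56e-05), the core splicing protein SNRPD3 fell by 1.25 ± 0.16, and DHX8, which releases spliced messenger RNA, was the single rise, by 0.67 ± 0.17.

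Of 69 ribosome biogenesis genes 4 rose, 35 fell and 30 did not pass. Under median scaling 20 fell. TSR2, which delivers a ribosomal protein to the forming small subunit, fell by 1.72 ± 0.24 (adjusted p = 0.000122), and UTP15 of the nucleolar processome by 1.26 ± 0.17. Of 76 mitochondrial ribosomal protein genes 4 rose, 29 fell and 43 did not pass, with 13 falls under median scaling and 15 to 19 without siIPMK array 2 or 3 or siCONTROL array 3. Among 68 cytoplasmic ribosomal protein genes 2 rose, 9 fell and 57 did not pass, a share of falls below that of all genes, with a median of -0.04. Without siIPMK array 1 the falls in that list numbered 17, and without siIPMK array 3 or siCONTROL array 3 they numbered 5. Ribosomal protein probes may also read processed pseudogenes. Of 49 translation factor genes 8 rose (16.3%), 11 fell (22.4%) and 30 did not pass. These shares lie near the 20.4% and 19.9% over all genes tested, and the median was -0.08. The rises numbered 4 or 5 without siIPMK array 2 or 3 or siCONTROL array 2, and the falls 6 or 7 with median scaling or without siIPMK array 2 or 3. The poly(A)-binding proteins PABPC4 and PABPC1 rose by 0.94 ± 0.09 and 0.60 ± 0.08, while EIF2B1 and EIF2S2, of the factors that bring the first transfer RNA, fell by 1.57 ± 0.19 and 1.27 ± 0.19.

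Of 9 measured small noncoding and nuclear RNAs 4 rose, 1 fell and 4 did not pass. SNORD13, a small nucleolar RNA, had log2 levels of 9.25, 9.63 and 9.46 in the siIPMK arrays, against 8.07, 7.59 and 7.86 in the siCONTROL arrays. It rose by 1.61 ± 0.20 (adjusted p = 5.88e-05) with array 1 again the lowest of siIPMK. RN7SK, which holds back transcription elongation in the nucleus, had log2 levels of 7.68, 9.22 and 9.30 in the siIPMK arrays, against 7.24, 7.70 and 7.5 in the siCONTROL arrays. Here array 1 overlapped the siCONTROL arrays, and the rise of 1.25 ± 0.42 (adjusted p = 0.0272) was lost without siIPMK array 2 or 3 and without siCONTROL array 1 or 3. These RNAs mostly lack poly(A) tails or stay in the nucleus, and the MessageAmp labelling that the labels name primes from poly(A), so the level of such a probe is hard to read as an amount. How much nuclear RNA entered each extract was not measured.

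Of 24 histone genes 8 rose, 8 fell and 8 did not pass, with a median of -0.23. The falls numbered 4 with median scaling and 5 without siIPMK array 3, and the rises 5 among genes detected on all 12 arrays. The genes differed by kind, in a split made after the values were seen. Of 16 measured genes of the histone clusters, whose messages normally end in a stem-loop, 8 rose and 3 fell, while of 8 other histone genes 0 rose and 5 fell. H2AC6 had log2 levels of 8.71, 8.99 and 8.75 in the siIPMK arrays, against 7.32, 7.09 and 6.90 in the siCONTROL arrays. No array overlapped, and the rise was 1.71 ± 0.15 (adjusted p = 7.26e-06), with H2BC12 and H2BC5 rising by 1.59 ± 0.14 and 1.51 ± 0.13. H3-3B, which encodes the replacement histone H3.3, had log2 levels of 9.02, 7.82 and 7.99 in the siIPMK arrays, against 10.20, 9.99 and 9.81 in the siCONTROL arrays. It fell by 1.73 ± 0.30 (adjusted p = 0.000565). Probes of clustered histone genes may cross-read near-identical copies. The labelling primes from poly(A), so their levels are also hard to read as amounts of the messages that end in a stem-loop.

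Metabolic genes moved in named groups rather than as a whole. Of 25 cholesterol synthesis and uptake genes 3 rose, 11 fell and 11 did not pass. IDI1 had log2 levels of 7.65, 6.85 and 6.55 in the siIPMK arrays, against 8.72, 9.34 and 9.01 in the siCONTROL arrays, apart on every array (adjusted p = 0.000233). INSIG1, which retains the cholesterol sensor in the ER, fell by 1.48 ± 0.18 (adjusted p = 6.11e-05) and the mevalonate enzyme MVD by 1.33 ± 0.18. The 3 rises were ABCA1, the phosphatidate phosphatase LPIN1 (1.25 ± 0.15) and NPC1 (0.79 ± 0.23), which carries cholesterol out of lysosomes and whose call was lost without siIPMK array 2 or 3 and without siCONTROL array 2.

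All 7 measured metallothioneins, small proteins that bind zinc and copper, fell. MT1G had log2 levels of 12.28, 11.55 and 11.35 in the siIPMK arrays, against 13.11, 13.41 and 13.40 in the siCONTROL arrays. It fell by 1.58 ± 0.24 (adjusted p = 0.000207), and MT1M (-1.76 ± 0.26) and MT1H (-1.47 ± 0.31) fell with it. Their sequences are close enough that a probe may read more than 1 of them. In a split made after the values were seen, 4 of 9 importers of the SLC39A family rose and 1 fell. Of 5 exporters of the SLC30A family 3 rose and 0 fell, and the other transporters did not pass. Over all genes tested 20.4% rose and 19.9% fell. SLC39A14 rose by 1.06 ± 0.21 (adjusted p = 0.00179) and the exporter SLC30A1 by 0.74 ± 0.17 (adjusted p = 0.00350). The rises of the whole list, 7 in all, numbered 3 without siIPMK array 2 and 4 without siCONTROL array 3.

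Of 35 glycolysis and hypoxia genes 15 rose, 4 fell and 16 did not pass. SLC2A1, the glucose transporter GLUT1, had log2 levels of 10.75, 11.82 and 11.53 in the siIPMK arrays, against 9.65, 9.55 and 9.27 in the siCONTROL arrays. All siIPMK arrays were above siCONTROL, array 1 the least (adjusted p = 0.000379). CA12, a carbonic anhydrase of the cell surface, rose by 1.56 ± 0.28 and NDRG1, a hypoxia-induced gene, by 1.56 ± 0.20. Serine, one-carbon and amino acid stress genes went both ways, with 14 rises and 12 falls among 34. CTH, which makes cysteine, had log2 levels of 11.89, 12.16 and 12.38 in the siIPMK arrays, against 10.48, 10.58 and 10.61 in the siCONTROL arrays and rose by 1.59 ± 0.12 (adjusted p = 3.88e-06). SHMT1 and PHGDH, of glycine and serine synthesis, fell by 1.51 ± 0.20 and 1.36 ± 0.20. The other SHMT1 probes gave -1.01 and 0.139, and the mean of its probes gave -0.794.

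Among 55 measured genes of inositol phosphate and phosphoinositide metabolism, the pathway to which IPMK belongs, 16 rose, 7 fell and 32 did not pass. The rises numbered 25 with median scaling and 10 without siIPMK array 3. ITPK1, which makes an inositol tetrakisphosphate that IPMK turns into the pentakisphosphate, had log2 levels of 9.92, 10.11 and 10.21 in the siIPMK arrays, against 9.14, 8.93 and 9.20 in the siCONTROL arrays. It rose by 0.99 ± 0.14 (adjusted p = 0.000171) with no overlap, and ITPKA, an inositol trisphosphate 3-kinase, fell by 0.86 ± 0.13 (adjusted p = 0.000275). The lipid phosphatase INPP4B rose by 1.08 ± 0.13, the phospholipase PLCE1 by 1.05 ± 0.17, and the lipid kinase PIP4K2A fell by 1.04 ± 0.10. Probes of PIP4K2A gave opposite calls, so its direction is uncertain.

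Genes of secretion and of lysosomes rose more often than they fell. Of 59 lysosome and V-ATPase genes 27 rose, 4 fell and 28 did not pass, with a median of 0.47. The rises numbered 12 without siIPMK array 2, 13 without siIPMK array 3 and 15 without siCONTROL array 3. CTSD, an aspartic protease of lysosomes, had log2 levels of 9.14, 10.33 and 9.96 in the siIPMK arrays, against 8.40, 8.05 and 8.12 in the siCONTROL arrays. It rose by 1.62 ± 0.30 (adjusted p = 0.000861), and NEU1, a sialidase, by 1.47 ± 0.28 (adjusted p = 0.00118). LAMP2, a major lysosomal membrane protein, rose by 1.44 ± 0.32 (adjusted p = 0.00322). In a split made after the values were seen, the V-ATPase, the proton pump that acidifies lysosomes, had 8 rises and 2 falls among 16 measured genes. Cathepsins, proteases of lysosomes, had 3 rises and 1 fall among 8. The shares over all genes tested were 20.4% higher and 19.9% lower. CTSB, a cysteine protease, fell by 0.65 ± 0.20 (adjusted p = 0.0197), a call lost without siIPMK array 3 and without siCONTROL array 1 or 2.

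Of 72 genes of ER folding, translocation and glycosylation 31 rose, 6 fell and 35 did not pass. The rises numbered 16 without siIPMK array 2, 20 without siIPMK array 3 and 18 without siCONTROL array 3. DNAJB9, an ER co-chaperone, had log2 levels of 9.09, 10.33 and 10.10 in the siIPMK arrays, against 8.55, 8.54 and 8.09 in the siCONTROL arrays. It rose by 1.45 ± 0.30 (adjusted p = 0.00196). HSPA5, the main ER chaperone BiP, had log2 levels of 6.81, 7.07 and 6.96 in the siIPMK arrays, against 7.88, 7.53 and 7.55 in the siCONTROL arrays. All siIPMK arrays were lower, and it fell by 0.71 ± 0.16 (adjusted p = 0.00297), opposite to DNAJB9. In the authors' processed values the difference of HSPA5 was -0.371 and passed. Of 73 COPI, COPII and Golgi genes 28 rose, 6 fell and 39 did not pass, including rises of KDELR3 (1.45 ± 0.21), which returns escaped ER proteins, and of the Golgi tether COG6 (1.1 ± 0.13). The COPII coat protein SEC23A fell by 1.62 ± 0.27 (adjusted p = 0.000471).

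Among cell surface and matrix genes rises were more frequent than falls. Of 39 extracellular matrix and protease genes 19 rose, 0 fell and 20 did not pass, with a median of 0.53. COL4A1, a chain of basement membrane collagen, had log2 levels of 10.91, 12.03 and 11.53 in the siIPMK arrays, against 9.62, 9.90 and 10.13 in the siCONTROL arrays. It rose by 1.60 ± 0.32 (adjusted p = 0.00176), the collagen hydroxylase PLOD2 by 1.65 ± 0.22 and the protease inhibitor TIMP2 by 1.46 ± 0.20. Of 44 integrin, cadherin and junction genes 16 rose, 1 fell and 27 did not pass, with 10 rises without siIPMK array 2 and also without siCONTROL array 3. ALCAM, an adhesion molecule, had log2 levels of 10.45, 10.99 and 10.47 in the siIPMK arrays, against 9.10, 8.87 and 8.52 in the siCONTROL arrays. It rose by 1.81 ± 0.18 (adjusted p = 1.18e-05), and N-cadherin, CDH2, by 1.27 ± 0.24 (adjusted p = 0.00118). Of 11 flippases and scramblases, which move lipids across membranes, 8 rose (72.7%), 1 fell (9.1%) and 2 did not pass, against 20.4% and 19.9% over all genes tested. The log2 differences of this list ran from -2.91, also the lowest value over all genes tested, to 1.05. Among those detected on all 12 arrays 4 rose and 0 fell. XKR8 rose by 0.70 ± 0.13 (adjusted p = 0.00121) and ANO6 by 0.67 ± 0.21 (adjusted p = 0.0201). The rises of this list numbered 3 or 4 without siIPMK array 2 or 3 or siCONTROL array 2 or 3, and the call of ANO6 was lost in each of these cases.

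Of 30 epithelial and breast lineage genes 14 rose, 1 fell and 15 did not pass. KRT19, a simple epithelial keratin, had log2 levels of 11.84, 12.31 and 12.41 in the siIPMK arrays, against 10.68, 10.55 and 10.84 in the siCONTROL arrays. It rose by 1.5 ± 0.16 (adjusted p = 2.45e-05), CD24 by 1.16 ± 0.13 (adjusted p = 3.95e-05) and KRT8 by 0.67 ± 0.12 (adjusted p = 0.000958). SCGB2A1, mammaglobin B, had log2 levels of 10.52, 10.82 and 10.63 in the siIPMK arrays, against 9.09, 8.26 and 8.25 in the siCONTROL arrays. The siIPMK arrays lay close together, and siCONTROL array 1 was the highest of its group (adjusted p = 1.64e-05). S100P fell by 1.41 ± 0.15 (adjusted p = 2.53e-05). Of the 5 epithelial markers measured, 4 rose.

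Of 44 Notch and Wnt genes 7 rose, 8 fell and 29 did not pass, with a median of 0.06 and both shares under those of all genes tested. The rises numbered 13 with median scaling or without experiment 1, 11 without siIPMK array 1 and 4 without siIPMK array 2 or 3. Of 8 measured HES and HEY genes, which encode repressors that Notch switches on, 5 fell and 1 rose. The split of the Notch list was made after the values were seen. HEYL had log2 levels of 7.77, 6.59 and 6.77 in the siIPMK arrays, against 9.22, 9.31 and 9.62 in the siCONTROL arrays. HEY1 had log2 levels of 8.66, 7.74 and 7.45 in the siIPMK arrays, against 9.94, 9.998 and 9.68 in the siCONTROL arrays. HEY2 had log2 levels of 9.21, 8.94 and 9.07 in the siIPMK arrays, against 9.98, 10.08 and 10.20 in the siCONTROL arrays. HEY2 fell by 1.01 ± 0.12 (adjusted p = 5.35e-05). Array 1 was the highest siIPMK array for each of these 3 genes and none overlapped. Of 35 immediate early and ERK feedback genes 12 rose, 2 fell and 21 did not pass. DUSP5, a phosphatase of ERK, had log2 levels of 10.86, 11.15 and 11.16 in the siIPMK arrays, against 9.93, 9.41 and 9.35 in the siCONTROL arrays and rose by 1.49 ± 0.18 (adjusted p = 4.55e-05). MYC rose by 0.86 ± 0.15 (adjusted p = 0.000546). The cytoskeletal gene TAGLN fell by 1.22 ± 0.09 (adjusted p = 3.88e-06), with log2 levels of 12.42, 12.51 and 12.56 in the siIPMK arrays, against 13.60, 13.81 and 13.74 in the siCONTROL arrays. It is among 61 actin, SRF and YAP target genes, of which 10 rose (16.4%), 10 fell (16.4%) and 41 did not pass. Both shares lie below the 20.4% and 19.9% over all genes tested.

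Genes often used as controls did not move alike. HPRT1, described above, fell by 1.80 ± 0.28. ACTB, beta-actin, had log2 levels of 15.41, 15.40 and 15.35 in the siIPMK arrays, against 15.33, 15.38 and 15.14 in the siCONTROL arrays, and its difference of 0.11 ± 0.08 (adjusted p = 0.286) turned to -0.0152 with median scaling. TBP differed by 0.12 ± 0.13 (adjusted p = 0.481). GAPDH rose by 0.24 ± 0.08 (adjusted p = 0.0335), with log2 levels of 14.82, 15.13 and 15.04 in the siIPMK arrays, against 14.82, 14.68 and 14.76 in the siCONTROL arrays. Array 1 lay at the level of the siCONTROL arrays, and the call was lost with median scaling, without siIPMK array 2 or 3 and without siCONTROL array 2 or 3. Of 272 genes with ZNF symbols, mostly zinc finger transcription factors, 28 rose and 33 fell, shares of 10.3% and 12.1% that lie below those of all genes. Several further named genes kept their call in the authors' processed values with sizes smaller by over 1.5 times. Among them were REV3L at 0.547, TELO2 at -0.802, TTI1 at -0.532, SNRPD3 at -0.675, UTP15 at -0.642, EIF2S2 at -0.665, H2AC6 at 1.08, MVD at -0.758, SLC30A1 at 0.448, ITPKA at -0.49 and PLOD2 at 1.08. RRM2B, BID and DHX8 were at -0.517, -0.405 and 0.359. Of 178 solute carriers 63 rose and 27 fell, 35.4% and 15.2%.

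The siIPMK array of experiment 1 went the same way as the others but less far. Per gene called, the change on array 1 had a median of 0.63 of the mean change on arrays 2 and 3, and array 1 was the smallest of the 3 for 2943 of 3790 called genes (77.7%) and the largest for 369 (9.74%). Regressed over all genes tested on the mean difference of the other siIPMK arrays, arrays 1, 2 and 3 had slopes of 0.565, 1.21 and 1.14. The lag was uneven between gene groups. Called mitotic kinase genes had a median ratio of 0.398, called kinetochore genes 0.443, lysosomal genes 0.468 and proteasome genes 0.375, while called p53 targets had 0.73, actin and SRF genes 0.765, epithelial genes 0.82 and RNA polymerase and Mediator genes 0.861. No test of these ratios was made. The ratios describe called genes, whose calls rest on all 3 arrays. Without siIPMK array 1, 2190 genes rose and 2121 fell. Without siIPMK array 2, 1304 rose and 1236 fell. How far IPMK was depleted on each array was not measured.

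**Figure D3:**
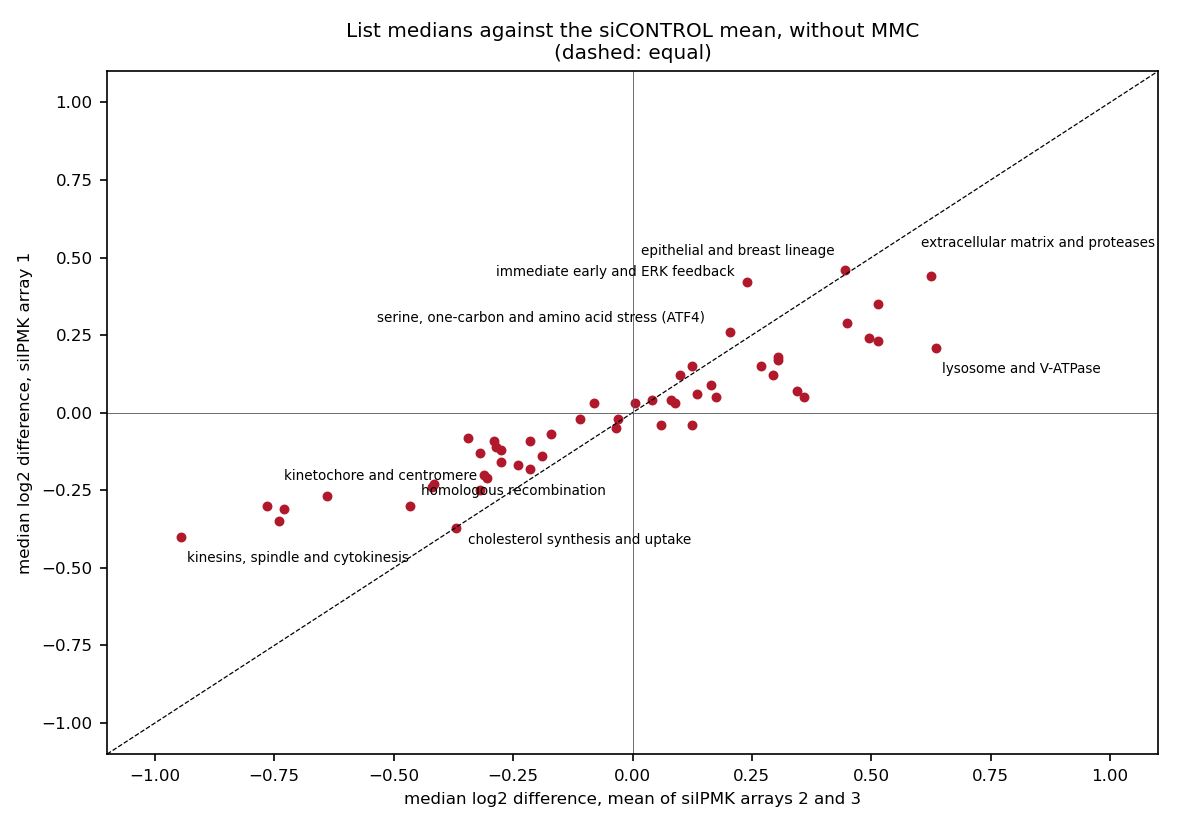
Median log2 difference from the siCONTROL mean for each of the 53 gene lists with at least 20 measured genes, siIPMK array 1 (vertical) against the mean of siIPMK arrays 2 and 3 (horizontal), without MMC; each point is a list and the dashed line marks equality. Of the 53 lists, 44 lie nearer to 0 on array 1, and the kinesin list reads -0.40 on array 1 against -0.99 and -0.90 on arrays 2 and 3, while the epithelial list reads 0.46 on array 1 against 0.46 and 0.43.

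The nearest comparison is the same depletion in cells kept in MMC, which uses the other 6 arrays. There 1959 genes rose (20.8%) and 1923 fell (20.4%). Genes that rose in both numbered 1469, which is 75.0% of the rises with MMC and 76.4% of those without MMC. Genes that fell in both numbered 1457, which is 75.8% of the falls with MMC and 78.0% of those without MMC. Of the rises and falls without MMC, 1889 and 1847 had the same sign with MMC. These comparisons share no array, but arrays of the same siRNA and the same experiment number deviated together, at correlations of 0.704, 0.545 and 0.346 for siIPMK, so they are not fully independent. Calls of opposite direction were made for 4 genes.

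In the fit across all 12 arrays no gene passed the test of the difference between both depletion effects, and 327 had an unadjusted p under 0.05 by limma. The lowest p values belonged to MYBPHL (-1.47 ± 0.23, effect with MMC minus effect without, adjusted p = 0.0832), INKA2 (-1.33 ± 0.22) and S100Z (-1.46 ± 0.24). MYBPHL and S100Z were detected on 0 of 3 siCONTROL arrays without MMC and INKA2 on 1 of 3, so their differences rest on levels at background. CDKN1A had 0.89 with MMC and 1.92 without (-1.04 ± 0.22 for the difference, adjusted p = 0.275). RPS27L, SESN1 and ISCU, also among the 10 lowest p values, had effects of -0.01, 0.06 and 0.34 with MMC, against 0.63, 0.86 and 1.06 without.

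With same-numbered arrays of one siRNA as a random block, an alternative added after the data were seen, 22 genes passed with a lower effect under MMC and 2 with a higher one, and 7 of these 24 are in the p53 list. Of the 47 p53 targets, 41 had a lower log2 difference, sign included, with MMC than without (87.2%), against 49.4% of all genes tested. This count includes effects that turned or grew negative with MMC, as for PHLDA3 (0.433 without, -0.55 with) and BAX (0.00218 without, -0.764 with). The median depletion effect of the 47 targets was 0.16 with MMC and 0.44 without. With MMC 15 of the 47 rose and 12 fell. The difference was tested for single genes and not for the list.

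**Figure D4:**
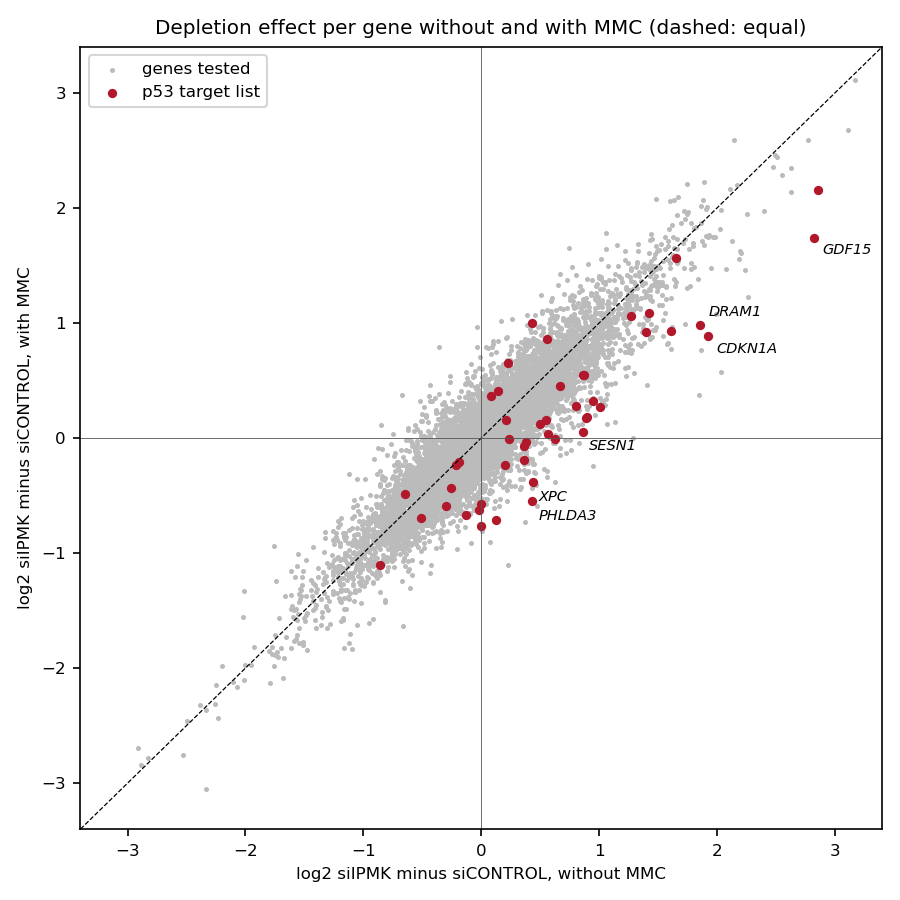
Log2 difference between siIPMK and siCONTROL for each of the 9409 genes tested, with MMC (vertical) and without MMC (horizontal); red points are the 47 p53 target genes and the dashed line marks equality. Most genes lie along the line, while GDF15 (1.74 with MMC, 2.82 without), CDKN1A (0.89 and 1.92) and other p53 targets lie below it, and XPC and PHLDA3 are below 0 with MMC and above 0 without.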

How the data were processed

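The series holds 12 Illumina bead arrays of cytoplasmic RNA, 4 groups of 3, and the comparison uses 6 of them. Per the file headers, the authors deposited for each array the mean bead intensity of each of 48802 probes, not background-corrected or normalised, and a detection p-value for each probe, which ranks it against the negative controls. The headers also give the bead number, with a median of 20 to 21 beads per probe, and the bead standard error of each signal, which the authors deposited and which was not used. A second table holds the authors' processed log2 values, for which the submitters' processing notes name lumi without settings. No slide is named, and precision is limited by how few arrays each group has.

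From the deposited intensities, limma 3.58.1 in R 4.3.3 computed the values used here. Background was corrected with neqc from the detection p-values (normexp with an offset of 16), followed by quantile normalisation and log2. A probe was kept when at least 3 of the 12 arrays gave it a detection p below 0.01. Of the 13830 kept, 12086 have 1 gene symbol in the platform annotation, 2 have several and 1742 are unnamed here. The probe with the highest mean stood for each of 9409 genes (2219 had more than 1 probe), and 16 genes had probes with opposite calls. A model with 4 groups was fitted to all 12 arrays with moderated variances that follow the mean level, and p-values were adjusted by Benjamini-Hochberg over all genes. The fit was tested on simulated data. Errors are standard errors of log2 differences.

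Genes are named where they lead the rises or falls among genes detected on all 6 arrays, have the largest bounds, lead a gene list (up to 3 rises and 3 falls each), belong to a fixed set of 10, or have the lowest p values for the difference between both depletion effects. Others, named for their promoters, as markers or as falling bounds, were chosen after their values were seen. The comparison and the gene lists were chosen with earlier results of these data known.

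The alternatives were no background correction, median scaling, detection on all 12 arrays, no filter, the authors' values, the mean of probes, the 6 arrays alone, no variance trend, an experiment block and each array left out in turn. Without MMC, same-numbered arrays of different siRNA deviated together at correlations of only 0.0876, 0.123 and 0.125. With MMC these correlations were 0.0553, 0.195 and -0.022, so the numbers were not taken to pair arrays of different siRNA.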

Additional observations from a re-analysis of the deposited data

Results flagged for a closer look

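For 4 genes the depletion effect had opposite called directions with and without MMC, and the difference between the effects passed when same-numbered arrays of one siRNA were taken as a random block, an alternative added after the data were seen. PHLDA3, a p53 target that restrains AKT, had an effect of -0.55 with MMC and 0.433 without. The difference was -0.983 ± 0.2 (limma adjusted p = 0.00479 with the random block and 0.275 without it). The errors given for the differences of these 4 genes are those of the fit without the block. With the block the error for PHLDA3 was 0.148. Its call without MMC was lost without siIPMK array 3 and without siCONTROL array 1 or 2.

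XPC, which recognises DNA lesions, had an effect of -0.386 with MMC and 0.435 without, a difference of -0.821 ± 0.186 (limma adjusted p = 0.0121 with the random block and 0.403 without it). Its call without MMC was lost without siIPMK array 2 and without siCONTROL array 1 or 2. PDLIM1, a protein of actin stress fibres, had -0.284 with MMC and 0.393 without, a difference of -0.677 ± 0.125 (limma adjusted p = 0.00479 with the random block and 0.152 without it). CYSRT1 had -0.408 with MMC and 0.464 without, a difference of -0.872 ± 0.192 (limma adjusted p = 0.0195 with the random block and 0.336 without it). All 4 were higher after siIPMK in undamaged cells and lower after siIPMK in cells kept in MMC. In the siCONTROL arrays all 4 rose with MMC relative to no MMC, PHLDA3 by 1.86 ± 0.14, XPC by 1.13 ± 0.13, PDLIM1 by 1.22 ± 0.09 and CYSRT1 by 1.48 ± 0.14 on the log2 scale.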

How the results depend on the processing

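The number of falls was the count that depended most on the scaling. With median scaling it was 1065 without MMC and 1088 with MMC, against 1868 and 1923 with quantile normalisation, and the number of rises was 2444 and 2485. The count of falls ranged from 1236 (without siIPMK array 2) to 2121 (without siIPMK array 1) when each of the 6 arrays was left out in turn, and that of rises from 1304 to 2190 for the same arrays. Without all 4 arrays of experiment 1, 2645 rose and 2585 fell. Under the remaining alternatives the rises numbered 1515 to 2251 and the falls 1708 to 2173. With the experiment number as a replicate block, 2251 rose and 2173 fell. Without MMC each siIPMK array correlated best, in its deviations, with the siCONTROL array of its own number. With MMC this held for array 2 only, with own-number correlations of 0.0553, 0.195 and -0.022 for arrays 1, 2 and 3. The match without MMC is a hint from the data and not the design. For the difference between both depletion effects, 0 genes passed, against 1 lower with the authors' processed values, 27 lower without experiment 1, and 22 lower and 2 higher with the random block, added after the data were seen. The cause was not tested. Of 345 named genes that passed, 271 kept their call under every alternative run and 74 lost it under at least 1: 31 with median scaling, 54 without a siIPMK array and 50 without a siCONTROL array. A slide block was not run because no slide is named. With 3 arrays in each group, differences that are small beside the median standard error of 0.154 were not detectable, and probes dim in a group give only a bound.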

Other observations

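Other groups held both rises and falls, against 20.4% higher and 19.9% lower over all genes tested. Of 46 insulin, FOXO and mTOR genes 15 rose (32.6%), 5 fell (10.9%) and 26 did not pass. The rises numbered 9 among genes detected on all 12 arrays. The falls numbered 3 with median scaling, without siIPMK array 2 and without siCONTROL array 1 or 3. IRS2, an adaptor of the insulin receptor that FOXO factors switch on, had log2 levels of 9.05, 9.53 and 9.49 in the siIPMK arrays, against 8.02, 8.21 and 8.51 in the siCONTROL arrays. It rose by 1.11 ± 0.15 (adjusted p = 0.000131), and the FOXO target CCNG2 by 1.1 ± 0.13 (adjusted p = 4.80e-05). The kinase RPS6KB1, which mTOR activates, fell by 1.32 ± 0.20 (adjusted p = 0.000237). Of 33 interferon response genes 13 rose, 2 fell and 18 did not pass, with 7 rises without siIPMK array 2. IFI6 and TRIM22, both induced by interferon, rose by 0.95 ± 0.29 and 0.90 ± 0.17, and by 0.603 and 0.455 in the authors' processed values. ISG15, a ubiquitin-like protein, fell by 0.45 ± 0.15 (adjusted p = 0.0240). The calls of IFI6 and ISG15 were lost without siIPMK array 2 or 3 and without siCONTROL array 3, and also without siCONTROL array 2 for IFI6 and without siCONTROL array 1 or with median scaling for ISG15. Of 28 TGF-beta and BMP genes 8 rose (28.6%), 5 fell (17.9%) and 15 did not pass, so the share of falls lay near that of all genes tested. The falls numbered 3 with median scaling and 9 without experiment 1. The receptor TGFBR2 rose by 1.08 ± 0.12 and the coreceptor TGFBR3 by 1.00 ± 0.23, and ID3, a target of BMP signals, fell by 0.62 ± 0.14.

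Mitochondrial genes fell more often than they rose. Of 66 respiratory chain and ATP synthase genes 5 rose, 19 fell and 42 did not pass, with 12 falls without siCONTROL array 3. Of 39 antioxidant and NRF2 genes 12 rose, 5 fell and 22 did not pass, with 3 falls under median scaling and without siIPMK array 2 or 3 or any siCONTROL array. CAT, catalase, had log2 levels of 10.31, 10.09 and 9.99 in the siIPMK arrays, against 9.42, 9.19 and 9.17 in the siCONTROL arrays. It rose by 0.87 ± 0.13 (adjusted p = 0.000218), while the quinone reductase NQO1 fell by 1.34 ± 0.16 (adjusted p = 4.82e-05). Among 14 genes of the siRNA and microRNA machinery 1 rose, 6 fell and 7 did not pass, with 3 falls under median scaling and without siIPMK array 2. DICER1, which cuts small RNA precursors, had log2 levels of 9.74, 9.22 and 9.55 in the siIPMK arrays, against 10.06, 10.58 and 10.53 in the siCONTROL arrays. It fell by 0.89 ± 0.18 (adjusted p = 0.00152).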
